A study of Mus musculus with 32 samples.

Results

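Mitochondrial beta oxidation enzymes are described here through 8 genes, Acadvl, Acadl, Acadm, Acads, Hadh, Hadhb, Acaa2 and Decr1. They were taken as every probe set on the array annotated to a single gene of that set, which gave 10 of 12422 probe sets, and 8 of the 8251 genes that have a probe set of their own. The RNA came from whole mammary gland and liver of wildtype FVB mice, 32 arrays in all, and no group carries a transgene or an engineered allele. On chow, the mammary gland was sampled at pregnancy days 12 and 17 and at lactation days 1, 2 and 9, with 4 arrays at each stage. At lactation day 10 there were 3 liver arrays from dams on 8% dietary fat, and 3 mammary arrays each from dams on 8%, 16% and 40% dietary fat. By the design text, dams on 8% and 40% of energy from soy oil ate chow until lactation day 5 and the test diet for the next 5 days. The labels do not say how the 16% diet was given. Titles set the groups, since the mammary 8% and 16% arrays carry descriptions that name 40% fat. The tissue was processed as individual samples, but the labels do not match liver and mammary arrays of a dam, and p-values measure the spread between these arrays.

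Beta oxidation breaks fatty acids down in the mitochondrion by repeating a cycle of dehydrogenation, hydration, a further dehydrogenation and thiolysis, each round shortening the acyl-CoA and releasing acetyl-CoA. Fatty acids enter as acylcarnitines through the carnitine shuttle, and the electrons pass through the electron transferring flavoproteins to the respiratory chain. Liver and other oxidative tissues depend on the pathway, whereas the lactating mammary gland is known for making fatty acids for milk and sending them into triglyceride. Peroxisome proliferator-activated receptors and estrogen-related receptors are nuclear receptors known to act on several of these genes.

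The promoters of Acadl, Acadm and Hadhb are shown as examples. All 3 genes were lower at lactation day 1 than at pregnancy day 17, and their windows hold one or the other of the motifs marked here. Acads, which is not shown, was lower at that step too and has a GC box at -16. Windows from 250 bases before to 50 bases after the RefSeq start site (GRCm38.p6) were read for 6 of the 8 genes. Acaa2 and Decr1 are not among these 6, so the motif counts below do not cover them. Capitals mark GGGCGG, the core of a GC box, or AGGTCA, the core letters of nuclear receptor elements, read on either strand. The Acadl window, chr1:66863260-66863559 on the minus strand, has 4 GC boxes on its reverse strand. The Acadm window, chr3:153944594-153944893 on the minus strand, has none and holds AGGTCA on its reverse strand, its first base at -249. The Hadhb window, chr5:30155003-30155302 on the plus strand, again has 4 GC boxes.
Acadl: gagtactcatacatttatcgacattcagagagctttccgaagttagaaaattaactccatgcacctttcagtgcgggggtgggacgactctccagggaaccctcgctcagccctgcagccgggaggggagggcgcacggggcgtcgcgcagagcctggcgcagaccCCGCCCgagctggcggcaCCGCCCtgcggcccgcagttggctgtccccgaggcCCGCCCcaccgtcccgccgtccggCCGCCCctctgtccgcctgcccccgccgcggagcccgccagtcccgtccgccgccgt
Acadm: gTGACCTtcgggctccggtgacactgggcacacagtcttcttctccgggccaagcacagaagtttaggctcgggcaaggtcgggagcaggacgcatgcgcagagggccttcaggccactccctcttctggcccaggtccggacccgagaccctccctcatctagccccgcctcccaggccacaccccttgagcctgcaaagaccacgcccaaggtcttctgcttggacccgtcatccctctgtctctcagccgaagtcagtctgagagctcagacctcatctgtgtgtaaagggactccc
Hadhb: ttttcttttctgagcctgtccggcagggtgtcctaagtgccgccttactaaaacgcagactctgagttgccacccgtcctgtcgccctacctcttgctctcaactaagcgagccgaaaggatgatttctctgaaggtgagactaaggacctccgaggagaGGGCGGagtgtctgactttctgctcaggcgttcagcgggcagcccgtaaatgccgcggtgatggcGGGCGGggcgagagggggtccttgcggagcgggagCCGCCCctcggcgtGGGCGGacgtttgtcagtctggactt
The GC box was found in 4 of the 6 windows, Acadl, Acads, Hadh and Hadhb, against 35.7% of all 32851 windows of that length. AGGTCA was found in Acadm and Acadvl, 2 of 6, against 16.3% of all windows. Neither a direct repeat of AGGTCA with 1 base between, present in 0.0396% of all windows, nor TCAAGGTCA, which contains AGGTCA and is present in 0.423%, was found in the 6. TATAAA, present in 13.6% of all windows, was found in none of the 6. These are letters in a window, and they say nothing about binding.

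Intensities are given as log2 of the deposited value, a change is a difference of log2 group means, and a fold is on the linear scale. Tests covered probe sets with at least 1 group mean at or above the median of all values, 18.6 (4.22 on the log2 scale), called the filter line below. A change was called at a limma adjusted p under 0.05, with Benjamini-Hochberg adjustment over every probe set tested. Median intensity per array ran from 16.1 to 21.5, and an array's mean correlation with the others of its group from 0.978 to 0.993. As a check of the tissue labels, all 11 hepatocyte markers measured were called higher in liver than in mammary gland on 8% fat. Of these, 10 were below the filter line in that mammary group, so they passed the filter only through liver. Of 10 luminal and secretory epithelial markers, 8 were called lower in liver and 2 higher. Over all 6897 probe sets tested, 2739 were higher and 2779 lower in liver. The milk protein gene Csn1s1 was at least 1868-fold lower in liver (limma adjusted p = 5.5e-11). This counts its liver mean, 1.93 and so below the filter line, as lying on the line. The same bound is used wherever at least N-fold is written.

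Of the 8 genes, 7 were tested, and each of these lay above the filter line in all 9 groups. Acadvl, the dehydrogenase for the longest chains bound to the inner membrane (chromosome 11, 70010183 to 70015428), could not be measured with its 2 probe sets. Their highest group means were 3.05 and 2.52, both at lactation day 9, and liver reached 2.53 ± 0.06 and 2.08 ± 0.04 (SD, n = 3). A second Acads probe set was also below the line, with 1.08 ± 0.71 in liver as its highest mean (SD, n = 3). No change is reported for these 3 probe sets.

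Over the 5 stages the set was lower in lactation than in pregnancy, and more enzymes were called lower between lactation day 1 and pregnancy day 17 than at any other consecutive step. A limma moderated F test called all 7 enzymes across the stages, at adjusted p-values up to 0.00254. It called 87.5% of all 7189 probe sets tested too, so that count is near the background, and it called 5 of the 7 with ribosomal protein medians set equal. The summed intensity of the 8 genes had medians of 3121 at pregnancy day 12, 2140 at day 17, 1291 at lactation day 1, 1259 at day 2 and 1047 at day 9.

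**Figure D1:**
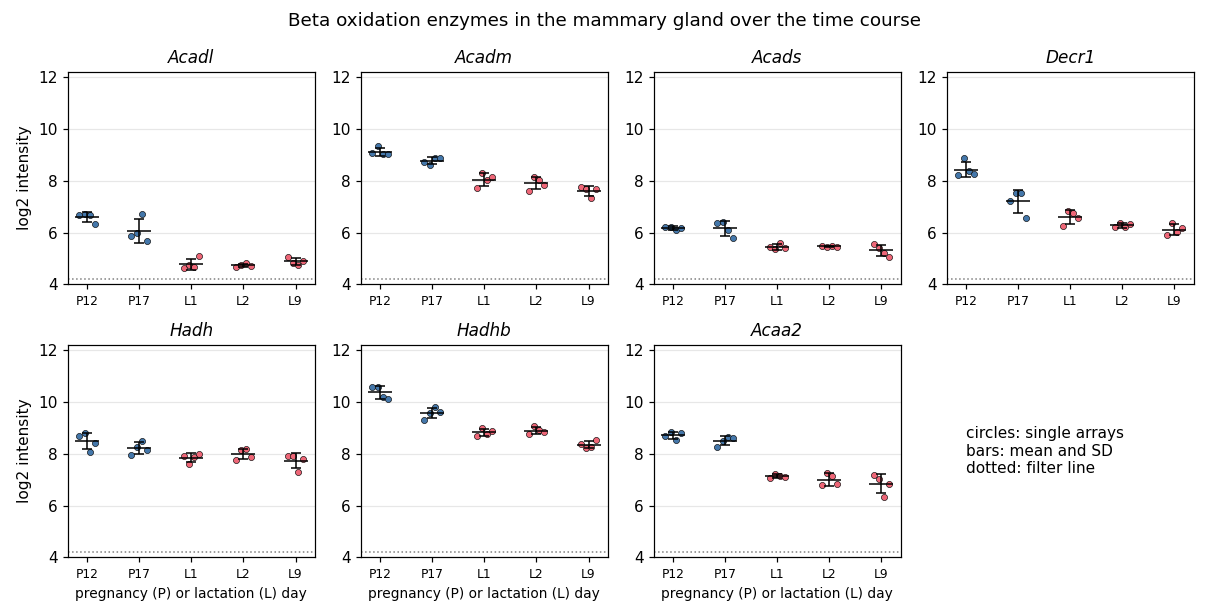
Log2 intensity of the 7 measured enzymes in each mammary array (circles) at pregnancy days 12 and 17 (P12, P17) and lactation days 1, 2 and 9 (L1, L2, L9), with group means and SD (n = 4 each) and the filter line at 4.22 dotted. Acaa2 and Acadl show a step between P17 and L1, Decr1 and Hadhb are already lower at P17 than at P12, and Hadh has the smallest fall from its P12 level.

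The acyl-CoA dehydrogenases carry out the opening step, each preferring its own chain length. Acadl, for long chains (chromosome 1, 66830839 to 66863309), had values of 6.66, 6.73, 6.67 and 6.33 at pregnancy day 12 and of 5.85, 5.98, 6.72 and 5.67 at day 17. In lactation it had 4.62, 4.73, 4.68 and 5.08 at day 1, 4.67, 4.74, 4.82 and 4.70 at day 2, and 5.05, 4.82, 4.76 and 4.92 at day 9. Every lactation array lay below every pregnancy array. Acadl averaged 4.78 ± 0.21 at lactation day 1 and 6.05 ± 0.46 at pregnancy day 17 (SD, n = 4 each), a fall of 2.42-fold (log2 change -1.27 ± 0.17 SE, limma adjusted p = 1.78e-05). Acadm, for medium chains (chromosome 3, 153922353 to 153944643), had 9.07, 9.34, 9.02 and 9.02 at pregnancy day 12 and 8.73, 8.61, 8.88 and 8.87 at day 17. Its lactation values were 7.70, 8.28, 8.03 and 8.13 at day 1, 7.61, 8.13, 8.02 and 7.84 at day 2, and 7.76, 7.68, 7.31 and 7.67 at day 9. Acadm was thus in 3 bands, pregnancy day 12 above day 17 and day 17 above all lactation arrays. Between lactation day 1 and pregnancy day 17 it fell 1.67-fold (log2 change -0.74 ± 0.14 SE, limma adjusted p = 0.000575). Acads, for short chains (chromosome 5, 115110299 to 115119346), averaged 5.44 ± 0.10 at lactation day 1 and 6.16 ± 0.29 at pregnancy day 17 (SD, n = 4 each), a fall of 1.65-fold (limma adjusted p = 0.000331). Its means at pregnancy days 17 and 12, 6.16 and 6.17, differed by less than the spread between arrays.

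The last steps of the cycle are carried by Hadh, Hadhb and Acaa2. Acaa2, the thiolase that cleaves 3-ketoacyl-CoA in the matrix (chromosome 18, 74779212 to 74806207), had 8.67, 8.84, 8.53 and 8.80 at pregnancy day 12 and 8.27, 8.49, 8.66 and 8.60 at day 17. In lactation it had 7.08, 7.22, 7.14 and 7.12 at day 1, 6.78, 7.27, 7.12 and 6.83 at day 2, and 7.17, 7.01, 6.33 and 6.85 at day 9. The pregnancy stages overlapped with each other, as did the lactation stages, and the highest lactation array, at 7.27, lay below the lowest pregnancy array, at 8.27. Acaa2 fell 2.57-fold between lactation day 1 and pregnancy day 17, the largest change of the 7 at that step (log2 change -1.36 ± 0.15 SE, limma adjusted p = 2.31e-06). Hadhb, the thiolase subunit of the mitochondrial trifunctional protein (chromosome 5, 30155253 to 30184593), had 10.57, 10.59, 10.20 and 10.13 at pregnancy day 12 and 9.31, 9.57, 9.79 and 9.62 at day 17. Its lactation values were 8.68, 8.98, 8.77 and 8.88 at day 1, 8.76, 9.08, 8.93 and 8.82 at day 2, and 8.39, 8.23, 8.26 and 8.53 at day 9. Hadhb stepped down at 3 points, with days 1 and 2 of lactation overlapping and day 9 below both. Hadh, the 3-hydroxyacyl-CoA dehydrogenase for shorter chains (chromosome 3, 131233419 to 131272101), averaged 7.85 ± 0.16 at lactation day 1 and 8.21 ± 0.23 at pregnancy day 17 (SD, n = 4 each). That difference was not called (log2 change -0.36, 95% interval -0.71 to -0.01, limma adjusted p = 0.137), and the arrays of the 2 stages overlapped.

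Decr1, the dienoyl-CoA reductase that lets unsaturated fatty acids pass through the cycle (chromosome 4, 15917240 to 15945377), moved mostly within pregnancy. It had 8.23, 8.87, 8.36 and 8.26 at pregnancy day 12 and 7.20, 7.52, 7.53 and 6.56 at day 17. In lactation the values were 6.24, 6.82, 6.76 and 6.54 at day 1, 6.20, 6.38, 6.21 and 6.33 at day 2, and 5.89, 6.38, 6.01 and 6.17 at day 9. The day 12 arrays lay above all others, and the lowest day 17 array was inside the range of lactation day 1. Its change between lactation day 1 and pregnancy day 17 was -0.61 ± 0.19 SE (limma adjusted p = 0.025). That call was lost when any of 5 of the 8 arrays was left out, lactation day 1 replicate 1 or 4 or pregnancy day 17 replicate 1, 2 or 3, with adjusted p-values up to 0.0940.

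Between pregnancy days 17 and 12, 3 of the 7 enzymes fell, Decr1, Hadhb and Acadl, against 26.7% of all probe sets tested that were lower. Decr1 fell 2.34-fold (log2 change -1.23 ± 0.19 SE, limma adjusted p = 4.66e-05) and Hadhb 1.74-fold (-0.80 ± 0.13 SE, adjusted p = 5.31e-05). Acadl changed by -0.54 ± 0.17 SE (limma adjusted p = 0.0135) with overlapping arrays, because day 17 replicate 3, at 6.72, lay among the day 12 values, and without day 17 replicate 4 the adjusted p was 0.0593. Acadm, Acads, Acaa2 and Hadh were not called, with log2 changes of -0.34, -0.01, -0.21 and -0.28. The median change of the 7 was -0.34, against -0.02 over all probe sets tested. With ribosomal protein medians set equal between arrays, calls over all probe sets were 1694 higher and 1285 lower, against 1322 higher and 1923 lower as deposited, and the enzymes' median lay at -0.34 relative to that of all probe sets.

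Between lactation day 1 and pregnancy day 17, 6 of the 7 fell, against 14.0% of all probe sets tested that were lower. Their median change was -0.74, against 0.03 over all probe sets. With ribosomal protein medians set equal, calls over all probe sets were 3251 higher and 356 lower, against 670 higher and 1004 lower as deposited. Under that scaling the median of all probe sets moved up by 0.33 and the enzymes' median lay 0.77 below it (members minus all, -0.77), while Decr1 and Acadm lost their calls at adjusted p = 0.326 and 0.0530. Between lactation day 2 and pregnancy day 17, a comparison that shares the pregnancy arrays, 6 of the 7 were lower, against 24.5% of all probe sets. The changes there were -1.50 for Acaa2, -1.32 for Acadl, -0.93 for Decr1, -0.87 for Acadm, -0.70 for Acads, -0.68 for Hadhb and, not called, -0.22 for Hadh (limma adjusted p = 0.289). With ribosomal protein medians set equal, 3 of these 6 calls were lost, Decr1, Acads and Hadhb, and calls over all probe sets were 4047 higher and 596 lower, against 1830 higher and 1759 lower as deposited. The median of all probe sets moved up by 0.46 there, and the enzymes' median lay at -0.93 relative to it.

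After lactation day 1 few changes were called. Between lactation days 2 and 1, limma called 0 of the 7 enzymes, 0 had an unadjusted p under 0.05, and 14.3% of all probe sets tested were called in either direction. That background was 9.53%, 11.7%, 8.93% and 8.34% without lactation day 2 replicate 1, 2, 3 or 4. Without lactation day 1 replicate 1, 2, 3 or 4 it was 18.5%, 7.80%, 7.28% and 8.27%. In each of these fits 0 enzymes were called. The 95% intervals of the 7 changes lay within -0.71 to 0.49. Between lactation days 9 and 2, 1 of the 7 fell, against 16.2% of all probe sets that were lower. This was Hadhb, at 8.35 ± 0.14 on day 9 and 8.90 ± 0.14 on day 2 (SD, n = 4 each), 1.46-fold lower (limma adjusted p = 0.00335). The call was lost after quantile normalization (adjusted p = 0.0911), where calls over all probe sets were 944 higher and 929 lower, against 634 higher and 1163 lower as deposited.

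**Figure D2:**
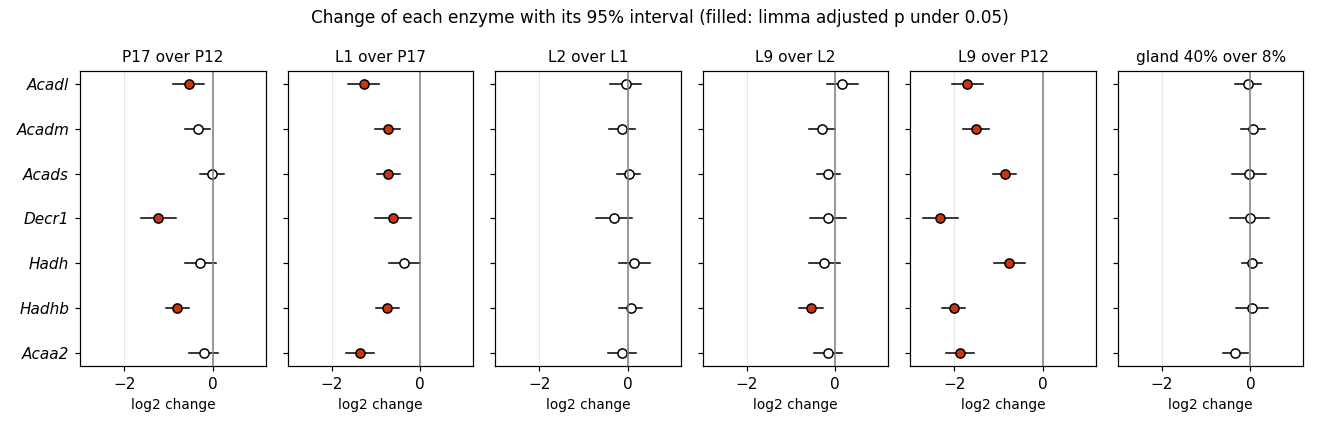
Log2 change of the 7 measured enzymes with its 95% interval in 5 comparisons of stages (later over earlier, n = 4 each) and in 40% over 8% dietary fat in the mammary gland (n = 3 each). Filled circles are calls at a limma adjusted p under 0.05, and all filled circles lie below 0, with 6 of them at L1 over P17 and 0 in the diet panel.

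Across the whole course, lactation day 9 against pregnancy day 12, all 7 enzymes fell, against 42.4% of all probe sets that were lower. Decr1 fell 4.99-fold, Hadhb 4.06-fold, Acaa2 3.66-fold, Acadl 3.27-fold, Acadm 2.84-fold, Acads 1.82-fold and Hadh 1.69-fold, with limma adjusted p-values of 0.000415 or less. The median log2 change of the 7 was -1.71, against -0.13 over all probe sets tested. Hadh and Acads had the smallest changes, -0.76 ± 0.17 and -0.87 ± 0.13 SE. Hadh lost its call after quantile normalization (adjusted p = 0.157) and both lost theirs with ribosomal protein medians set equal (0.333 for Hadh, 0.0629 for Acads). Calls over all probe sets were 2820 higher and 2404 lower after quantile normalization and 3762 higher and 1634 lower with ribosomal protein medians set equal, against 2529 higher and 3048 lower as deposited. Relative to the median of all probe sets, the enzymes' median lay at -1.51 after quantile normalization and at -1.63 under ribosomal scaling.

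The enzymes and electron carriers around the 7 did not all keep their timing. Of all probe sets tested, 26.7% were lower between pregnancy days 17 and 12. The share was 14.0% between lactation day 1 and pregnancy day 17, and 42.4% between lactation day 9 and pregnancy day 12. Of the other members of the mitochondrial spiral, 7 were tested, and all 7 fell between pregnancy days 17 and 12, with a median of -0.53. Etfdh, which hands electrons from the flavoproteins to ubiquinone, changed most there, by -1.07. Between lactation day 1 and pregnancy day 17, 2 of these 7 fell, with a median of -0.19, and Eci2, an isomerase for unsaturated chains, changed most, by -1.32. Between lactation day 9 and pregnancy day 12 all 7 fell (median -1.21), led by Etfb, an electron transferring flavoprotein subunit, at -2.51. In the carnitine shuttle and acyl-CoA activation list 3 of 6 tested genes fell between lactation day 1 and pregnancy day 17, led by Cpt1a, the regulated entry enzyme. The mean of Cpt1a was below the filter line at lactation days 1, 2 and 9, against 6.03 ± 0.56 at pregnancy day 17 (SD, n = 4), so it was at least 3.51-fold lower at lactation day 1.

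Counts in other pathways of the same arrays varied. Over all 7189 probe sets tested, 670 were higher and 1004 lower between lactation day 1 and pregnancy day 17. Between lactation day 9 and pregnancy day 12, 2529 were higher and 3048 lower. In peroxisomal beta oxidation 5 of 9 tested genes fell between lactation day 1 and pregnancy day 17 (median -0.52), led by the thiolase Acaa1a at -0.71. The respiratory chain had 2 genes higher and 4 lower of 22 (median 0.02) at that step, and 15 of 22 lower (median -0.57) between lactation day 9 and pregnancy day 12, led by Ndufa5 at -1.64. Breakdown of branched amino acids, which uses related acyl-CoA dehydrogenases, had 3 higher and 0 lower of 12 at lactation day 1 against pregnancy day 17 (median 0.13), with Dbt changed most at 0.98. Fatty acid synthesis ran the other way, with 9 of 13 genes higher at lactation day 1 than at pregnancy day 17 (median 0.80), led by Elovl5, an elongase, at 2.31. Between lactation day 9 and pregnancy day 12 the synthesis list had 12 of 13 higher (median 1.14). Whether these lists differ from the 7 enzymes was not tested.

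Among 13 measured regulators known to act on beta oxidation genes, 8 were tested. Ppara, Ppard and Ppargc1a were below the filter line at all 5 stages. Between pregnancy days 17 and 12, 2 of the 8 were higher and 1 lower. Nrip1, a corepressor of nuclear receptors, was at least 3.36-fold higher, with its day 12 mean below the filter line (limma adjusted p = 2.62e-05). The rise of Nrip1 did not last: its change between lactation day 2 and pregnancy day 17 was -1.63 (limma adjusted p = 0.000514). At lactation day 9 its mean was again below the filter line. Pparg, which is in the white adipocyte list as well, fell by 1.71 on the log2 scale between pregnancy days 17 and 12 (limma adjusted p = 1.66e-05). Between lactation day 1 and pregnancy day 17, 1 of the 8 was called, Med1, a Mediator subunit, at 0.44. Over all probe sets, 670 were higher and 1004 lower at that step. Lpin1, a phosphatidate phosphatase that also acts as a coactivator, rose by 2.47 between lactation day 9 and pregnancy day 12 (adjusted p = 8.9e-08).

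In whole tissue, fewer cells of a type and less RNA per cell cannot be told apart. Markers of several other cell types fell with the enzymes, and those of others were higher. Over all 7189 probe sets tested, 1322 were higher and 1923 lower (26.7%) between pregnancy days 17 and 12. Between lactation day 1 and pregnancy day 17, 670 were higher and 1004 lower (14.0%). Between lactation day 9 and pregnancy day 12, 2529 were higher and 3048 lower (42.4%). Of 10 measured white adipocyte markers, all above the filter line in each mammary group, 8 fell between pregnancy days 17 and 12 (median -0.91), 2 between lactation day 1 and pregnancy day 17 (median -0.38) and 9 between lactation day 9 and pregnancy day 12 (median -2.15). Their summed intensity ran from 11697 to 20833 at pregnancy day 12, 7433 to 8346 at day 17, 4440 to 8675 at lactation day 1, 3916 to 6256 at day 2 and 4728 to 5445 at day 9. At lactation day 1 that sum overlapped pregnancy day 17, while the summed enzymes did not, with 1147 to 1349 at lactation day 1 and 1911 to 2490 at pregnancy day 17. Fibroblast markers fell in 2 of 9 genes at that step, and their sum did not overlap, with 5555 to 8959 at lactation day 1 and 10754 to 11411 at pregnancy day 17. Macrophage markers fell in 4 of 7 tested genes, with sums of 747 to 955 at lactation day 1 and 1239 to 1463 at pregnancy day 17. Adgre1 of that list was below the line at all 5 stages and Cd68 from pregnancy day 17 on. Between lactation day 9 and pregnancy day 12 all 9 fibroblast and all 7 tested macrophage markers fell (medians -2.63 and -2.55). Of the 10 luminal and secretory epithelial markers, all above the line in each mammary group, 6 were higher and 1 lower between pregnancy days 17 and 12, 2 higher and 3 lower between lactation day 1 and pregnancy day 17, and 6 higher and 3 lower between lactation day 9 and pregnancy day 12. Their sum ran from 58240 to 79678 at pregnancy day 12, 108806 to 117665 at day 17, 118583 to 129978 at lactation day 1, 142015 to 150085 at day 2 and 135384 to 147440 at day 9.

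Of 5 measured brown adipocyte markers, Ucp1, Cox8b and Elovl3 were above the line in every mammary group and Dio2 below it in all 9 groups. Of the 4 tested, 1 was higher and 1 lower between pregnancy days 17 and 12. Between lactation day 2 and pregnancy day 17, 3 were higher, led by Ucp1 at 1.39 (limma adjusted p = 0.0398). Of all 7189 probe sets tested, 1830 were higher there. Cox7a1, 1 of the 4, was below the line at pregnancy days 12 and 17 and lactation day 1. It passed the filter only through later lactation groups, so for Cox7a1 the filter itself selected for a rise. The sum of the 5 markers lay between 189 and 249.2 at lactation day 1, against 159 to 182 at pregnancy day 17, and between 159 and 355 over the 5 stages. Of 9 skeletal muscle markers, all were below the line at pregnancy days 12 and 17 and lactation day 1, and Tnnt3, Tnni2 and Mb reached it at lactation day 9. The 3 tested passed the filter only through lactation groups, so the filter itself selected for a rise. They were called higher between lactation day 9 and pregnancy day 12, where 2529 of all 7189 probe sets were higher. By the bound of the filter line, Tnni2 was at least 1.08-fold higher. Sums of the 9 markers were 109 to 135 at lactation day 9 and 78.8 to 84.3 at pregnancy day 12. The part of any of these cells in the fall of the enzymes was not tested.

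**Figure D3:**
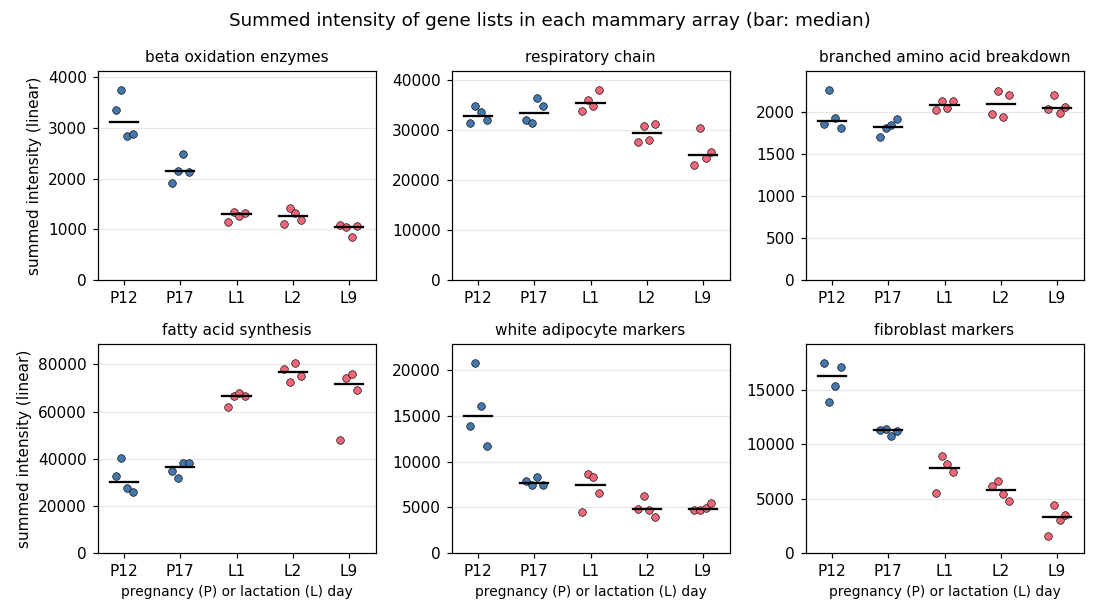
Summed linear intensity of the 8 beta oxidation genes and of 5 other lists in each mammary array at pregnancy days 12 and 17 (P12, P17) and lactation days 1, 2 and 9 (L1, L2, L9), with group medians as bars (n = 4 each). The enzymes drop between P17 and L1, where the white adipocyte sum overlaps and the fatty acid synthesis sum is higher.

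The genes whose 5 stage means were most like the mean of the 7 enzymes were sought among 5473 other genes by Pearson's r over those 5 means, as a description. Rnf4, a SUMO-dependent ubiquitin ligase, came first with r = 0.9996 and means of 8.46 and 7.96 at pregnancy days 12 and 17 and of 6.98, 6.92 and 6.72 at lactation days 1, 2 and 9. Rras, Thrap3, Zfand5 and Slc44a1 followed. Over the 8 mammary groups, diets included, the adaptor Gab1 (r = 0.996), Slc44a1, Cav1, Mvp and Pon2 were most like it. Cav1, the coat protein of caveolae, had 9.69 and 9.18 at pregnancy days 12 and 17 and 8.40, 8.18 and 7.90 at lactation days 1, 2 and 9. The groups share their arrays with the enzymes, and with 5 or 8 points high correlations are common among that many genes.

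No enzyme was called for dietary fat at lactation day 10. Limma called 0 of the 7 between 40% and 8% fat in the mammary gland, against 0.0925% of all 6483 probe sets tested, and 1 of the 7, Acaa2, had an unadjusted p under 0.05. Acaa2 had 6.55, 6.71 and 6.42 on 40% fat and 6.86, 7.07 and 6.77 on 8% fat. The 40% arrays lay below the 8% arrays, and the change was -0.34, with a 95% interval from -0.61 to -0.06 and a limma adjusted p of 0.477. The largest positive change was 0.07, for Acadm (adjusted p = 0.975). The 95% intervals of all 7 lay within -0.61 to 0.42, so the data do not bound the changes more tightly than that. Between 40% and 16% fat 0 of 7 were called (0.123% of all probe sets), with intervals within -0.53 to 0.59, and between 16% and 8% fat 0 of 7 (0.0% of all probe sets), with intervals within -0.63 to 0.58. In both comparisons with 16% fat, 0 enzymes had an unadjusted p under 0.05. Leaving out 1 array kept the calls over all probe sets between 1 and 4 for 40% against 8% fat, where the count was 6, between 1 and 18 for 40% against 16%, where it was 8, and between 0 and 2 for 16% against 8%, with 0 enzymes called each time. The moderated F test over the 3 diets called 0 of 7, and 0 had an unadjusted p under 0.05, against 0.17% of all probe sets called. In the same 40% against 8% comparison 2 of 13 fatty acid synthesis genes fell, led by the desaturase Scd1 at -1.29 (limma adjusted p = 0.00118).

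Mammary gland at lactation day 10 on 8% fat was also set against lactation day 9 on chow, where diet, day and series change together and cannot be told apart. Limma called 0 of the 7 enzymes, against 15.3% of all 6735 probe sets tested. That background was unstable: it was 4.03%, 2.67% and 3.78% without replicate 1, 2 or 3 on 8% fat, and 33.1%, 6.64% and 5.41% without replicate 2, 3 or 4 of lactation day 9, with 0 enzymes called each time. Of the 7, 1 had an unadjusted p under 0.05. This was Acadl, with 4.74, 4.68 and 4.46 on 8% fat and 5.05, 4.82, 4.76 and 4.92 on chow. The arrays on 8% fat lay below those on chow by a narrow margin (log2 change -0.26, 95% interval -0.52 to -0.01, limma adjusted p = 0.12). The highest change was 0.40, for Decr1 (95% interval -0.05 to 0.86, adjusted p = 0.165).

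In liver all 7 enzymes were higher than in mammary gland on the same 8% diet, against 39.7% of all 6897 probe sets tested that were higher. Their median log2 change was 2.85, against -0.01 over all probe sets. Acaa2 had 11.58, 11.54 and 11.72 in liver and 6.86, 7.07 and 6.77 in mammary gland, 26.2-fold higher (log2 change 4.71 ± 0.11 SE, limma adjusted p = 8.31e-09). Acadl had 7.93, 8.28 and 8.81 in liver and 4.74, 4.68 and 4.46 in mammary gland, 13.1-fold higher (3.71 ± 0.21 SE, adjusted p = 1.69e-06). No liver array overlapped a mammary array for either gene, and Acadl was more spread in liver, with an SD of 0.44, than in mammary gland, with 0.15. Decr1 was 7.42-fold higher in liver, Acads 7.22-fold, Acadm 6.24-fold and Hadh 4.12-fold, each with a limma adjusted p of 5.42e-06 or less. Hadhb had the smallest ratio, 3.66-fold, with 10.23, 10.15 and 10.08 in liver and 8.41, 8.50 and 7.93 in mammary gland (limma adjusted p = 1.56e-05). With ribosomal protein medians set equal, calls over all probe sets were 6648 higher and 756 lower, against 2739 higher and 2779 lower as deposited, and the enzymes' median was 3.83, against 0.84 over all probe sets.

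**Figure D4:**
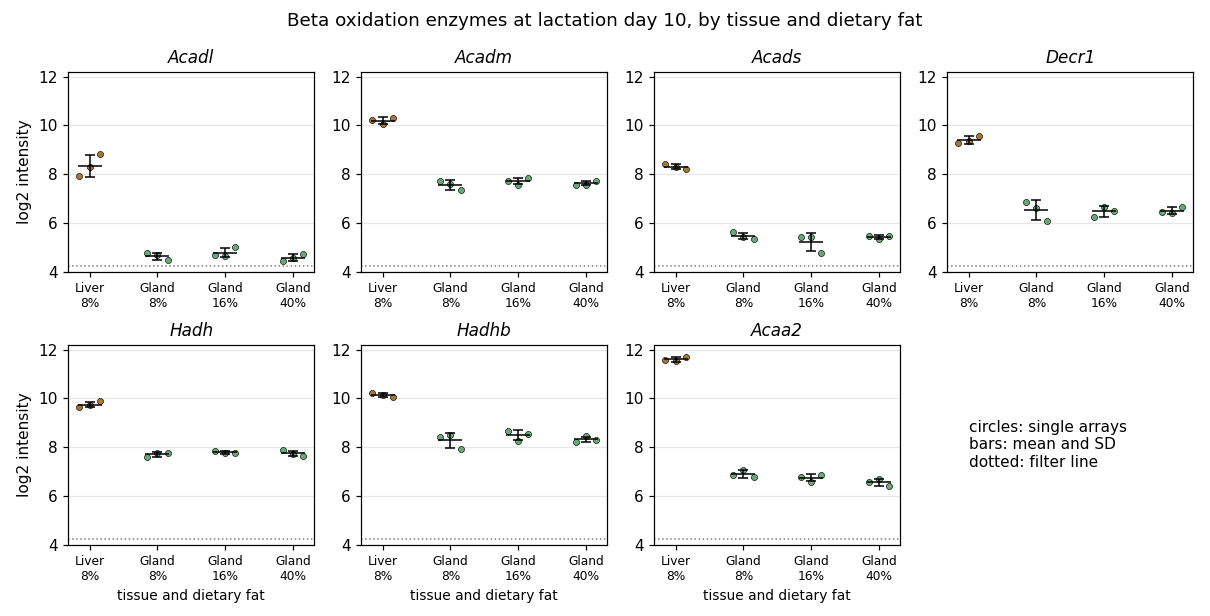
Log2 intensity of the 7 measured enzymes at lactation day 10 in liver on 8% fat and in mammary gland on 8%, 16% and 40% fat, with single arrays as circles, means and SD (n = 3 each) and the filter line at 4.22 dotted. Liver lies above the mammary groups for every gene shown, and the 3 diets overlap except for Acaa2, whose 40% arrays lie below the 8% arrays.

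The order of the levels was not the same for all genes. Liver came first for Acadl, Acadm, Acads, Acaa2, Hadh and Decr1, with no overlap with the next group, pregnancy day 12. For Hadhb pregnancy day 12 came first, at 10.37 ± 0.24 (SD, n = 4), with liver second at 10.15 ± 0.08 (SD, n = 3) and overlapping arrays. The lactation day 9 group and the 3 diet groups held the lowest levels for Acadm, Hadh, Hadhb and Acaa2, and neighbours among these 4 groups overlapped. Among the lactation and diet groups Acadl had its highest mean at lactation day 9 (4.89) and Decr1 its lowest there (6.11), in both with arrays that overlapped the next group. Liver arrays were not fitted together with the stage arrays, so the order across tissues is a description.

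The rest of the pathway was higher in liver as well. Of all 6897 probe sets tested, 2739 were higher and 2779 lower there. All 7 tested other members of the spiral were higher (median 2.19), led by Etfb at 3.08, and all 9 peroxisomal genes (median 1.72), led by the carrier protein Scp2 at 2.96. Cpt1a was at least 22.1-fold higher in liver, its mammary mean being below the filter line, while Crat, the carnitine acetyltransferase, was lower by 0.90 (log2 change -0.90, limma adjusted p = 0.000357). Of 8 tested regulators, 2 were higher and 4 lower in liver (median -0.20). Ppara, the receptor known as a main activator of these genes in liver, was at least 10.6-fold higher (limma adjusted p = 7.27e-07). Its mammary mean was again below the filter line, so it passed the filter only through liver. Pparg was lower in liver (-0.65). Fatty acid synthesis had 10 of 13 genes lower and 1 higher in liver (median -1.71), led by Scd2 at -5.91, with Elovl6 higher at 2.19. Of the respiratory chain 13 of 23 genes were higher and 5 lower (median 0.40).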

How the data were processed

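Values were the intensities that the authors processed and deposited on a linear scale, 12488 probe sets in 32 arrays. GCRMA is named per the submitters' processing notes, and its version is not given in the sources used here, nor are its settings. About 5 micrograms of RNA per sample were labelled with biotin, per the labels' protocols. The deposited intensities were floored at 1 (208 values) and taken to log2 without further normalization. After 66 control probe sets were left out, probe sets were named from the array's annotation table, 10833 with a single gene, 396 with several and 1193 with none.

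Where a gene had several probe sets, the brightest on average represented it. The 20 stage arrays, 9 mammary diet arrays, 7 arrays of mammary gland on 8% fat and lactation day 9, and 6 arrays of liver and mammary gland on 8% fat were fitted separately in limma 3.58.1 (R 4.3.3). The procedure was tested on simulated data. The 8 genes and all lists were chosen with earlier results of these data known, so the lists are not independent evidence of a direction. Named from other lists were, per comparison, the called genes with the largest rise and fall, plus the 5 genes most like the enzymes over stages and over mammary groups. Other list genes named, such as those below the filter line and Csn1s1 beside its list, follow from counts or marker checks. Array number, 3 or 4 per group, limits the precision. Alternatives changed the filter, floor, normalization, probe set choice, replicate block, groups fitted and arrays kept.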

Additional observations from a re-analysis of the deposited data

Results flagged for a closer look

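Among 35 groups of 4 arrays checked (7 enzymes at 5 stages), 2 held an array far from the other 3, and chance alone gives about 1 in 20. Acadl at pregnancy day 12 had replicate 4 at 6.33, below a group median of 6.66. Acadm at pregnancy day 12 had replicate 2 at 9.34, above a group median of 9.04. The changes from pregnancy day 12 given above include both arrays.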

How the results depend on the processing

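Of 30 called changes of single enzymes, recomputed 471 times under alternatives, 452 values kept their direction and call, 19 lost the call and 0 changed sign. The 9 changes that lost a call at least once are named with the results or were lost under ribosomal scaling or quantile normalization, for Decr1 between lactation day 2 and pregnancy day 17 at adjusted p = 0.0894, Acads at 0.158 and Hadhb at 0.239. Acadl between pregnancy days 17 and 12 also lost it after quantile normalization (0.117), ribosomal scaling (0.0661) and with the compared groups alone (0.0655). Decr1 between lactation day 1 and pregnancy day 17 lost it with the compared groups alone (0.0783). Over all alternatives the count of called enzymes, in either direction, lay between 2 and 5 for pregnancy day 17 against 12. It was 4 to 6 for lactation day 1 and 3 to 7 for lactation day 2, both against pregnancy day 17. For lactation day 9 against pregnancy day 12 it was 5 to 8. For liver against mammary gland it was 7 to 8, and over the stages 5 to 8. The count of 8, and that of 7 for lactation day 2, were reached where Acadvl, below the filter line, was tested. Acadvl ran against the other 7, with means of 3.05 at lactation day 9 and 2.51 at pregnancy day 12. Its means were 2.53 in liver and 2.82 in mammary gland on 8% fat. The count moved by over 1.5 times in 4 cases. Without a filter it went to 5 of 8 between pregnancy days 17 and 12, adding Acadm, lower, and Acadvl, higher. Also without a filter it went to 1 of 8 for 8% fat against lactation day 9, the call being Acadvl, lower on 8% fat. It went to 0 between lactation days 9 and 2 after quantile normalization. Under ribosomal scaling it went to 3 between lactation day 2 and pregnancy day 17.

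Changes of sign occurred in uncalled values. Under ribosomal scaling Acads between pregnancy days 17 and 12 was 0.090 (0.19 after quantile normalization), and Acadl between lactation days 2 and 1 was 0.078. Hadh between lactation day 2 and pregnancy day 17 was 0.23 under that scaling, against -0.22 as deposited. Leaving out 1 array gave -0.092 to 0.12 for Acads between pregnancy days 17 and 12, -0.099 to 0.056 for Acadl and -0.0056 to 0.069 for Acads between lactation days 2 and 1, -0.27 to 0.0065 for Acaa2 between lactation days 9 and 2, -0.041 to 0.15 for Acadm between 40% and 8% fat, and -0.019 to 0.31 for Acads between 40% and 16% fat. The cause was not tested. A further 20 diet and chow changes, none named above, changed sign in 29 of 274 values, all between -0.28 and 0.24 and 0 of them called. Correlations of same-numbered arrays ran from -0.22 to 0.26 between pregnancy days 17 and 12. They were 0.08 to 0.13 between lactation days 2 and 1, and 0.04 to 0.15 between 40% and 16% fat. Whether they exceed those of differently numbered arrays was not tested. A replicate block left the counts of called enzymes as they were, 6 between lactation day 1 and pregnancy day 17 and 7 between liver and mammary gland. The block took the calls over all probe sets for 8% fat against lactation day 9 to 60 (0.891%).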
